A study of Rattus norvegicus with 18 samples.

Results

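The mitochondrial respiratory chain genes are those that encode the protein subunits of complexes I to V, together with a few close relatives and assembly factors. They were taken as the probe sets that carry a single gene symbol starting with Nduf, Sdha to Sdhd, Uqcr, Cyc1, Cycs, Cox4 to Cox8 or Atp5. Under that rule 102 of 8740 probe sets named 56 of the 4736 genes on the array, and the brightest probe set of a gene, by mean log2 signal, stood for it. Complex I gave 24 genes, complex II 1, complex III 4, complex IV 12 and complex V 9, and 6 more were assembly factors, inhibitors, related proteins or a pseudogene.

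Intact female Sprague-Dawley rats received a closed mid-shaft femoral fracture, held by an intramedullary rod, at an age of 6 weeks (young), 26 weeks (adult) or 52 weeks (older). Femora were collected 3 days later and after 1, 2, 4 and 6 weeks of healing, and no-fracture sham controls of each age served as the start of the series. The labels and methods do not state whether these controls also received the rod, so a change from no fracture may include the rod surgery. There were 18 Affymetrix rat arrays, 1 for each age at each of the 6 times, and each array held RNA pooled from 2 rats (36 rats in all). The tissue was the segment of the femur around the fracture, with callus, cortical bone and marrow together, so that fewer cells of a type and less RNA per cell cannot be told apart. The labels place these arrays in the second series of the study, which also ran independent arrays of each age and time that were not analysed here. Among the 18, no array repeated an age at a time. The 3 ages therefore stood in as replicates of each time, and p-values measure the spread between these samples.

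The respiratory chain passes electrons from NADH (complex I) and succinate (complex II) through complex III and cytochrome c to oxygen at complex IV, and complex V uses the resulting proton gradient to make ATP. Several complex IV subunits exist in a form found in most tissues and a form found in heart and skeletal muscle. Marrow, muscle and bone differ widely in how much they rely on this chain, and callus cartilage forms in a tissue with a poor blood supply.

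The first samples after fracture had less signal from these genes. At 3 days 23 of the 56 genes were called lower and 0 higher than with no fracture (adjusted p below 0.05, limma), where 20.4% of all probe sets were called lower and 18.9% higher. Their median log2 change was -0.58, beside -0.08 over all probe sets. Among the 2231 probe sets with a mean signal of at least 500, which hold 53 of the members, 26.4% were lower and the median change was 0.14. All 3 arrays at 3 days lay below all 3 arrays with no fracture in 29 of the 56 genes, beside 25.4% of all probe sets. Among the times after fracture, the lowest change from no fracture fell at 3 days in 38 of the 56. No fracture was not among the times compared, so the lowest change of a gene could still be a rise. This count has no share of all probe sets beside it, and 3 days also had the largest share of all probe sets called lower (20.4%).

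**Figure D1:**
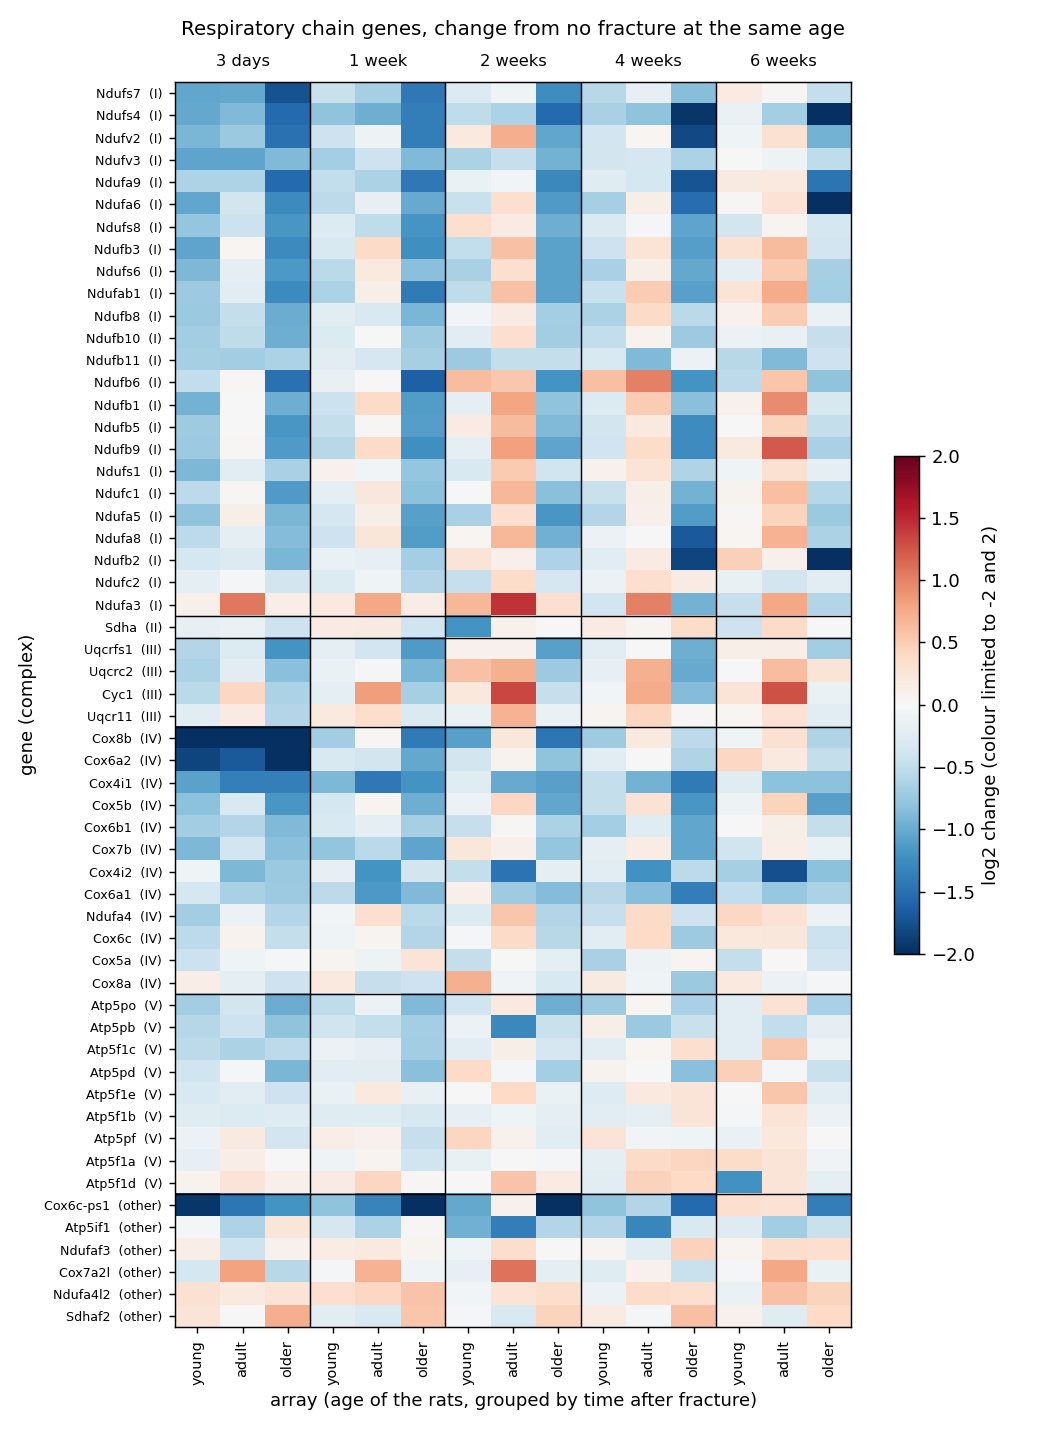
Each row is a respiratory chain gene with its complex, and each column is 1 array after fracture, grouped by time and then by age. Colour gives the log2 change from the no-fracture array of the same age, limited to -2 and 2. Blue dominates the 3-day columns, with Cox8b and Cox6a2 darkest, and the older arrays stay bluer than the adult arrays at every later time.

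Several complex IV subunits were measured in more than 1 form. Cox6a2 and Cox8b encode the heart and skeletal muscle forms of subunits 6a and 8, and Cox6a1 and Cox8a encode the forms of most other tissues. The promoter windows of Cox6a2 and Cox8b, the members with the largest falls, and of Cox8a, the counterpart of Cox8b, are printed here. Those of Cox4i1 and Ndufs4, whose brightest probe sets were called lower at all 5 times, are printed with them. They are RefSeq sequences of assembly GRCr8, from 250 bases before the gene's start to 50 after it, and were matched by symbol for 47 of the 56 genes. Capitals mark matches, on either strand, to CCGGAAG (bound by ETS factors), AANATGGCG (YY1), CAAGGTCA (ERR) or TAAAAATA (MEF2), and the window of Cox8b held none of them. Cox6a2 lies at chr1:192219667-192219966, Cox8b at chr1:205408224-205408523, Cox8a at chr1:213833574-213833873 and Ndufs4 at chr2:47794865-47795164, all on the minus strand, and Cox4i1 at chr19:65630133-65630432 on the plus strand.
Cox6a2: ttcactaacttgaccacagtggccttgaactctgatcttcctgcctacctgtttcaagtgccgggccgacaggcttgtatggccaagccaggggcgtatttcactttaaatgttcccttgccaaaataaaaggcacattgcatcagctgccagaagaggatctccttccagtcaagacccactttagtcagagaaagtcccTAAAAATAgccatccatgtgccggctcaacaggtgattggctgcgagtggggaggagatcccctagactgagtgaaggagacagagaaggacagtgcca
Cox8b: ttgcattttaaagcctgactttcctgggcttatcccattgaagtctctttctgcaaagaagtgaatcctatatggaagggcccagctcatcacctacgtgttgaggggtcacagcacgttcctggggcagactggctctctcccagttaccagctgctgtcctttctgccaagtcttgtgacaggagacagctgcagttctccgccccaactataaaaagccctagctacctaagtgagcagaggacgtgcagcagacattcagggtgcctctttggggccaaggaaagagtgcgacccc
Cox8a: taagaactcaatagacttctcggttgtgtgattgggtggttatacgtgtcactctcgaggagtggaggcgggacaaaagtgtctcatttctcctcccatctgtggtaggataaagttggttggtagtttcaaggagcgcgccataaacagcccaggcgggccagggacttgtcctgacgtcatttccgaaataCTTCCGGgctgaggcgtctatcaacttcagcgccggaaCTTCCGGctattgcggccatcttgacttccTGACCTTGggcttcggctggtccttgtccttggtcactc
Cox4i1: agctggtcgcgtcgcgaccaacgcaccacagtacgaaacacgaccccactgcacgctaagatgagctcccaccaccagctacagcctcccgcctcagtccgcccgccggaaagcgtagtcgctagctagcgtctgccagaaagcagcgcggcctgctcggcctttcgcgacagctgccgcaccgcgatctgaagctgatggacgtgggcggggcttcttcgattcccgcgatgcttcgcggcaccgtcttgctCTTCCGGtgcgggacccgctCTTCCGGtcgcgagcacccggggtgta
Ndufs4: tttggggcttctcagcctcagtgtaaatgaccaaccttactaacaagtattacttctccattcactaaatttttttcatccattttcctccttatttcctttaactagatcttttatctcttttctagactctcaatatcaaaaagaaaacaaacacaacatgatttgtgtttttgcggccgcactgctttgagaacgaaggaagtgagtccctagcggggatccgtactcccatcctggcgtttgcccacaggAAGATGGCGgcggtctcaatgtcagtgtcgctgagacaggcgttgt

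Of the 47 windows, 9 held the NRF1 motif GCGCANGCG (5.8% of 33469 promoters of the same length), 10 the ETS motif (8.75% of all), 11 the YY1 motif (3.01%), 1 the ERR motif (1.52%) and 1 the MEF2 motif (2.69%). The window with the MEF2 letters was that of Cox6a2, and the window with the ERR letters was that of Cox8a. Of the 21 windows whose genes were called lower at 3 days, 5 held NRF1 letters, 3 ETS letters and 5 YY1 letters. Among the other 26, the counts were 4, 7 and 6. A match is a run of letters and was not tested as a binding site.

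Cox6a2 had signals of 9124, 9359 and 13977 in young, adult and older rats with no fracture, and of 2574, 2928 and 2979 at 3 days. No 3-day array reached the lowest control, and the log2 change was -1.91 ± 0.16 (SE; adjusted p = 1.9e-05, limma). At 1 week the signals were 7424, 7317 and 6824 (log2 change -0.56, adjusted p = 0.02). By 6 weeks they were 12207, 10651 and 10086, which overlapped the controls (log2 change 0.05, adjusted p = 0.94).

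Cox8b behaved in the same way with a deeper fall. Its signals were 4909, 2767 and 6114 with no fracture and 740.4, 514.8 and 567.4 at 3 days, a log2 change of -2.86 ± 0.27 (SE; adjusted p = 2.8e-05, limma). The signals at 1 week were 3024, 2822 and 2307, already above every 3-day array but overlapping the controls. At 6 weeks they were 4658, 3429 and 4025 (log2 change -0.12, adjusted p = 0.85). A second bright probe set of each gene fell as well at 3 days, by 2.66 for Cox8b and by 1.82 for Cox6a2 on the log2 scale.

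Cox8a had signals of 5188, 7159 and 7187 with no fracture, 5686, 6329 and 5405 at 3 days and 5958, 6590 and 7085 at 6 weeks. These groups overlapped, and the log2 change at 3 days was -0.15, with a 95% interval from -0.55 to 0.25. Cox6a1 read 7146, 9954 and 9133 with no fracture and 5625, 6349 and 5547 at 3 days (log2 change -0.57, adjusted p = 0.026). The change of Cox8b less that of Cox8a at 3 days was -2.71 ± 0.41 (SD, n = 3 ages), and that of Cox6a2 less Cox6a1 was -1.34 ± 0.27 (SD, n = 3). Both differences had the same sign at all 3 ages and exceeded the spread between ages. At 6 weeks they were -0.14 ± 0.52 and 0.68 ± 0.44.

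Probe sets of Cox6a1 and Cox8a disagreed. In Cox6a1 the brightest probe set was lower at 3 days, but the other 2 were called higher, by 0.96 and 0.77 on the log2 scale. In Cox8a 2 of the other 3 were called higher, by 1.19 and 0.58. The direction of the forms found in most tissues thus depends on the probe set, whereas the 2 bright probe sets of each muscle form fell together.

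**Figure D2:**
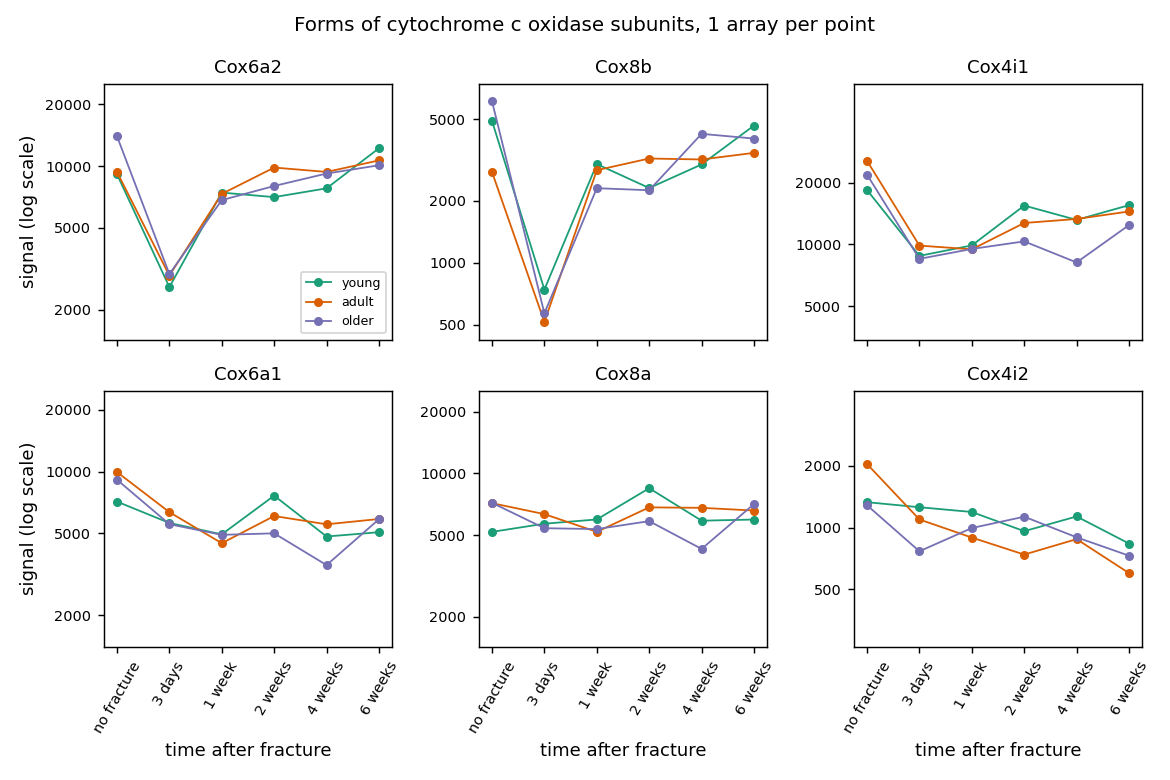
Signal (vertical axis, log scale of equal width in every panel) at each time (horizontal axis) for 6 complex IV genes, with 1 point per array and 1 line per age. Cox6a2 and Cox8b drop at 3 days on all 3 lines and recover by 6 weeks, while Cox8a overlaps its controls and Cox4i1 and Cox4i2 end below theirs.

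Markers of skeletal muscle moved with these forms. Of 26 muscle genes, 23 were called lower at 3 days (median log2 change -1.93), and their summed signal was 50913 to 54561 against 166088 to 197533 with no fracture. The sum was back at 148329 to 196605 at 6 weeks, and 23 of the 26 were higher at 6 weeks than at 3 days (10% of all probe sets). All 10 erythroid markers and all 5 neutrophil markers were lower at 3 days, with sums of 8085 to 17323 and 1008 to 14052 against 75248 to 147611 and 40908 to 53145. Other lists moved differently at 3 days, when 20.4% of all probe sets were called lower and 18.9% higher. Of 8 cartilage markers 4 were higher (median 2.34), and of 4 macrophage markers 2 were higher and 1 lower. Of 12 fat cell markers 4 were lower, and of 6 osteoclast markers 0 were called. The actin 3'/5' signal ratio, a sign of RNA quality, was 1.48 to 1.88 at 3 days and 2.1 to 2.61 with no fracture. It was 1.65 to 1.9 at 1 to 4 weeks and 1.89 to 2.72 at 6 weeks. The part of these markers and of RNA quality in the falls was not tested apart from fracture. With the actin ratio as a covariate 4 genes were called lower at 3 days, and with the muscle level 0 were, in a fit that called 0 of all probe sets.

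Complex I, the entry point for NADH, had 12 of its 24 genes called lower at 3 days (20.4% of all probe sets), with a median log2 change of -0.70. Ndufv3, an accessory subunit of the NADH-binding arm, read 2108, 2023 and 2375 with no fracture and 1018, 968 and 1288 at 3 days. The arrays at 3 days all lay below the controls, and the log2 change was -0.999 ± 0.13 (SE; adjusted p = 0.00016, limma). A dim second probe set of Ndufv3 (mean signal 90.93) was called higher at all 5 times, by 2.32 at 3 days. Ndufs7, a core subunit that holds an iron-sulphur cluster, read 3553, 3190 and 5120 with no fracture and 1727, 1561 and 1533 at 3 days, again without overlap. Its log2 change was -1.27 ± 0.19 (SE; adjusted p = 0.00042, limma), and at 6 weeks it was back at 3971, 3234 and 3661. The other complex I genes called lower at 3 days were Ndufb10, Ndufb11, Ndufs6, Ndufv2, Ndufb8, Ndufs4, Ndufa9, Ndufs8, Ndufb3 and Ndufab1, with log2 changes from -1.15 to -0.67. Ndufa3, an accessory subunit, was the exception in direction among the brightest probe sets, at 0.43 (adjusted p = 0.24). The other probe sets of Ndufs8, Ndufab1, Ndufs4 and Ndufb11 were not called at 3 days, with changes from -0.83 to 0.45. Those of Ndufb8 at -1.1 and -1.45 were called lower, and a dim one at -0.51 was not.

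Complex IV, where oxygen is reduced, had 7 of 12 genes called lower at 3 days (median -0.64), beside 20.4% of all probe sets. Besides the genes above these were Cox4i1, Cox5b, Cox6b1 and Cox7b. Cox4i1, the form of subunit 4 in most tissues, read 18414, 25547 and 21884 with no fracture and 8800, 9874 and 8509 at 3 days. The 3-day arrays were less variable than the controls and did not overlap them (log2 change -1.27 ± 0.17, SE; adjusted p = 0.00021, limma). Cox6b1, which sits on the outer face of the complex, read 8003, 6252 and 8483 with no fracture and 4938, 4187 and 4624 at 3 days (log2 change -0.72 ± 0.13, SE; adjusted p = 0.0014, limma). A second Cox6b1 probe set (mean signal 1808) was not called (-0.3, adjusted p = 0.18, limma).

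Complex V, the ATP synthase, had 2 of 9 genes called lower at 3 days (median -0.31), close to the share of all probe sets (20.4%). Atp5po, part of the stalk that holds the catalytic head, read 7294, 5275 and 8811 with no fracture and 4496, 4100 and 4401 at 3 days (log2 change -0.69, adjusted p = 0.0093). A second Atp5po probe set (mean signal 2658) was not called (-0.33, adjusted p = 0.17, limma). Atp5f1d, the delta subunit of the central stalk, overlapped its controls at 3 days and at 6 weeks, with 2725, 1917 and 2503 with no fracture, 2861, 2275 and 2687 at 3 days and 1175.2, 2274.5 and 2182.2 at 6 weeks. Atp5f1c, the rotating gamma subunit, read 3315, 2628 and 3174 with no fracture and 2317, 1693 and 2192 at 3 days (log2 change -0.56, adjusted p = 0.045). In complex III 1 of 4 genes was called lower (20.4% of all probe sets). This was Uqcrfs1, the Rieske iron-sulphur protein. Uqcrfs1 read 5955, 5550 and 9039 with no fracture and 3955, 4588 and 3949 at 3 days (log2 change -0.69, adjusted p = 0.016). Uqcrc2, a core protein of complex III, read 1774, 1672 and 2531 with no fracture and 1150, 1449 and 1424 at 3 days, again without overlap, at a log2 change of -0.55 (adjusted p = 0.17). Uqcr11 was not called on its brightest probe set (log2 change -0.22, adjusted p = 0.28). A second Uqcr11 probe set of nearly equal mean signal (3520 beside 3539) was called lower (-0.73, adjusted p = 0.0045, limma). Cyc1, the cytochrome c1 of complex III, read 2706, 1452 and 3484 with no fracture, 1863, 1938 and 2253 at 3 days and 3220, 3534 and 3181 at 6 weeks, and these groups overlapped. Sdha, the flavoprotein of succinate dehydrogenase, was the complex II gene measured, and it read 1670, 1471 and 1891 with no fracture and 1494, 1345 and 1415 at 3 days, with overlap (log2 change -0.24, adjusted p = 0.56). Whether complexes differ in their response was not tested.

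**Figure D3:**
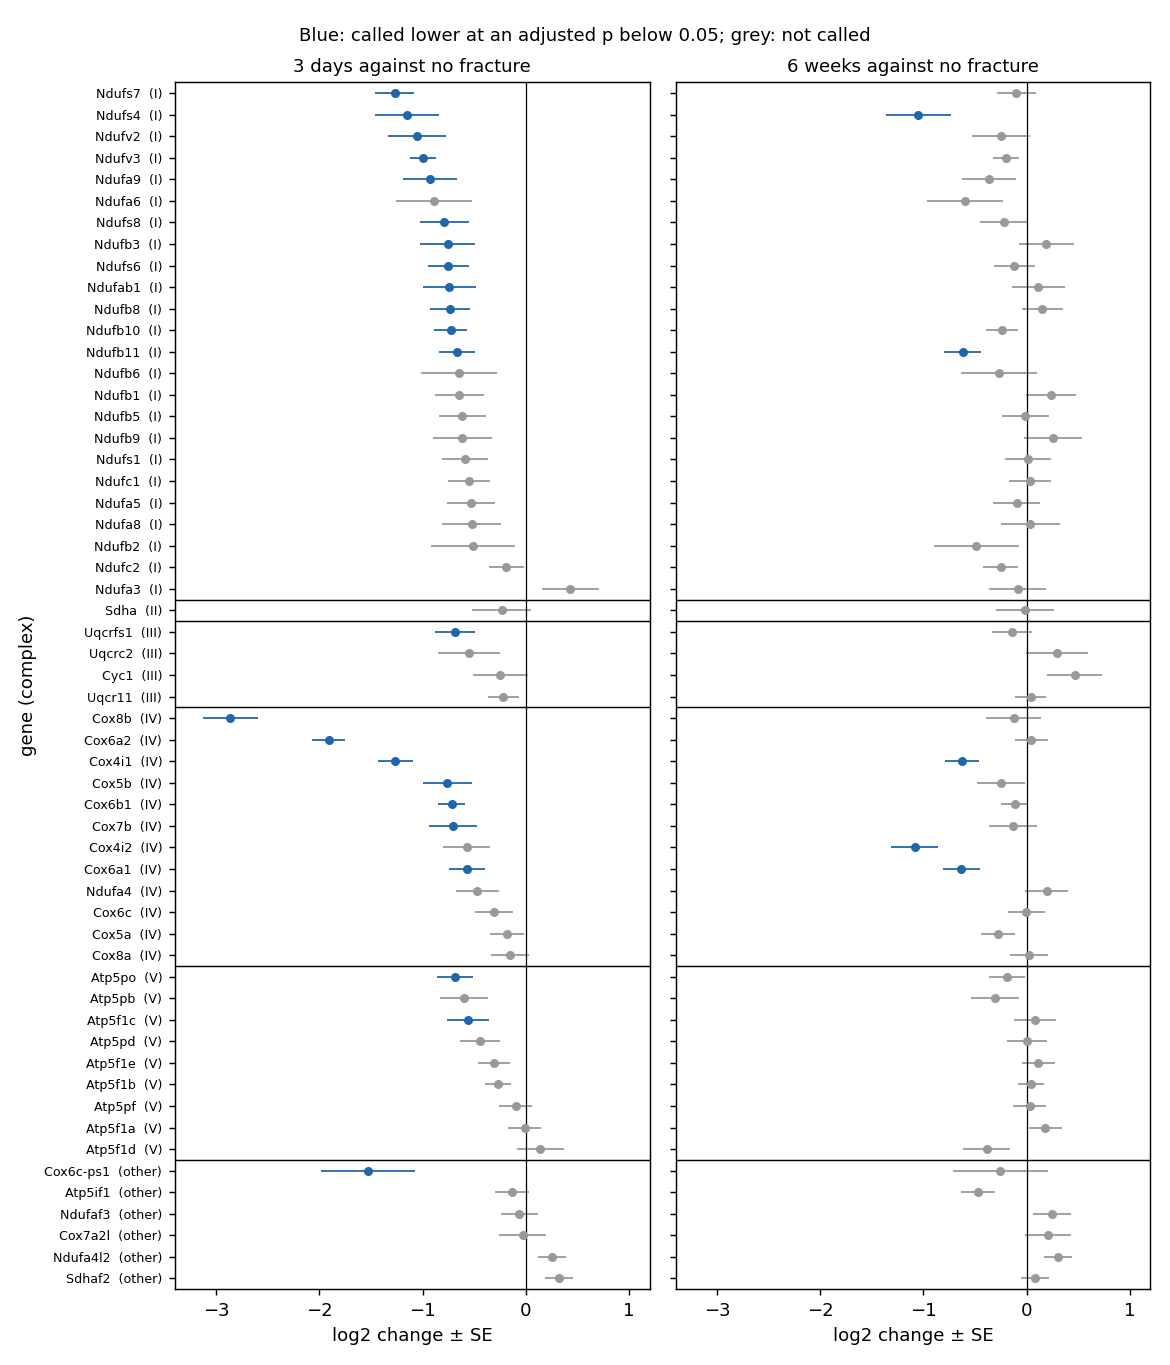
Log2 change from no fracture (horizontal axis, ± SE from limma) for each of the 56 genes (vertical axis, ordered by complex and then by the change at 3 days). At 3 days 23 genes are called lower and shown in blue, and at 6 weeks 5 are.

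The calls became fewer with time. At 1 week 13 genes were lower and 1 higher (17.8% and 18% of all probe sets), and at 2 weeks 8 were lower and 1 higher (16.8% and 16.1%). At 4 weeks the counts were 6 and 0 (9.7% and 11.5%) and at 6 weeks 5 and 0 (7.11% and 8.34%). From 2 weeks on, the share of respiratory chain genes called lower was between 8.93% and 14.3%, near the share of all probe sets. The median log2 change was -0.39, -0.15, -0.35 and -0.09 at 1, 2, 4 and 6 weeks. All 3 arrays lay below all 3 controls in 5 of 56 genes at 6 weeks, where 14.3% of all probe sets did so.

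**Figure D4:**
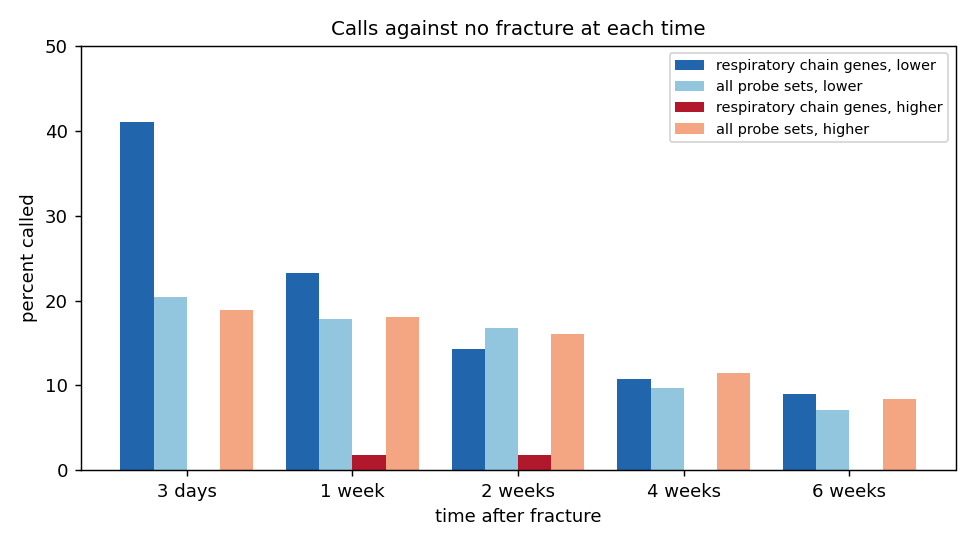
Percent of genes or probe sets called at an adjusted p below 0.05 (vertical axis) at each time after fracture (horizontal axis). Dark bars are the 56 respiratory chain genes and pale bars all 8740 probe sets. The dark blue bar stands at 41.1% at 3 days beside 20.4%, and comes close to the pale blue bar from 2 weeks on.

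Set directly against 3 days, 14 genes were higher at 6 weeks and 0 lower, where 10% of all probe sets were higher and 10.2% lower, and the median log2 difference was 0.50. Of the 24 complex I genes 8 were higher, of the 12 complex IV genes 5 and of the 9 complex V genes 1. Cox6a2 and Cox8b rose by 1.96 and 2.74 on the log2 scale, Ndufs7 by 1.17, Ndufv3 by 0.80, Cox6b1 by 0.60 and Atp5f1c by 0.64 (adjusted p = 5e-05, 1e-04, 0.0019, 0.0017, 0.0088 and 0.044, limma). This comparison shares its 3-day arrays with the fall described above. The actin ratio was 1.48 to 1.88 at 3 days and 1.89 to 2.72 at 6 weeks, and its part was not tested apart from time.

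A few genes were still called lower at 6 weeks on their brightest probe set, 8.93% of the 56 beside 7.11% of all probe sets. Of the 56, 2 were called lower at all 5 times, Cox4i1 and Ndufs4, and 2 at 4 times, Cox6a1 and Ndufv3. On that probe set 29 were never called. These counts over the times have no share of all probe sets beside them. Ndufs4, an accessory subunit that stabilises complex I, read 2040, 2131 and 3115 with no fracture, 1003, 1161 and 1064 at 3 days and 1849, 1333 and 621.4 at 6 weeks. The 6-week arrays lay below all controls, with the older array lowest, and the log2 change was -1.05 ± 0.31 (SE; adjusted p = 0.044, limma). Cox4i1 read 15532, 14474 and 12427 at 6 weeks, between its 3-day and control levels (log2 change -0.63, adjusted p = 0.03). Cox6a1 read 5070, 5880 and 5865 (log2 change -0.63, adjusted p = 0.036).

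Cox4i2, the form of subunit 4 known from lung and from response to low oxygen, was called lower at 2 and 6 weeks. Its signals were 1330, 2040 and 1285 with no fracture and 1257, 1096 and 766.9 at 3 days (log2 change -0.57, adjusted p = 0.067). The change of Cox4i2 less that of Cox4i1 was 0.69 ± 0.26 (SD, n = 3 ages) at 3 days and -0.46 ± 0.47 at 6 weeks. It used the brightest Cox4i1 probe set. The other Cox4i1 probe sets changed by -0.52 and -0.08 at 3 days, so the sign of this difference depends on the probe set. The Cox4i2 signals were 836.2, 600.3 and 729.9 at 6 weeks, a log2 change of -1.08 ± 0.23 (SE; adjusted p = 0.011, limma), the lowest of the 56 at that time. Ndufb11, an accessory subunit of complex I, read 1771, 1886 and 2246 with no fracture and 1199, 1028 and 1675 at 6 weeks (log2 change -0.62, adjusted p = 0.037).

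Other probe sets of these genes did not show the falls at 6 weeks. The other 2 probe sets of Cox4i1 had changes of 0.05 and 0.54 at 6 weeks, and those of Ndufs4 -0.42 and -0.28, none of them called. From 1 week on neither of these Cox4i1 probe sets was called lower. Of these Ndufs4 probe sets the brighter one (mean signal 507.5) was never called. The dim one (33.68) was called lower at 1 and 2 weeks only. The other probe sets of Cox6a1 stood at 0.68 and 0.39 and that of Ndufb11, a dim one, at 0.51. Ndufb8 differed the other way, as its brightest probe set was not called at 6 weeks (0.15). A second bright one (mean signal 4804) and a dimmer one (365.9) were called lower at all 5 times. Their log2 changes at 6 weeks were -0.65 and -0.83 (adjusted p = 0.031 and 0.028, limma). Without the older array with no fracture 2 genes were called lower at 6 weeks, Cox4i2 among them, and the adjusted p of Ndufs4, Cox4i1, Cox6a1 and Ndufb11 was 0.15, 0.11, 0.12 and 0.074. At that time 0 of the 26 muscle markers were lower, while 4 of 10 erythroid and 2 of 5 neutrophil markers still were (7.11% of all probe sets). Summed erythroid signals were 42797 to 89513 and neutrophil signals 5944 to 31526 at 6 weeks. The part of these cells in the 6-week values was not tested.

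Genes that were higher were few. Ndufa4l2, a relative of a complex IV subunit that is induced by low oxygen in many cells, read 508.3, 580.3 and 500.8 with no fracture and 640.6, 770.5 and 741.6 at 1 week, with no overlap (log2 change 0.44, adjusted p = 0.027). Its 4 other probe sets were called higher at 3 days, 1 week and 2 weeks, by 0.81 to 3.36 on the log2 scale. Cox7a2l, which helps to assemble supercomplexes, read 2563, 1312 and 2345 with no fracture and 2014, 2308 and 1586 at 3 days, with overlap. A second probe set of Cox7a2l was called higher by 0.94 at 3 days, and also at 1, 2 and 6 weeks. Ndufa3 read 1227, 773.7 and 1255 with no fracture and 1956, 2107 and 1580 at 2 weeks, also without overlap (log2 change 0.82, adjusted p = 0.042). Atp5if1, the protein that inhibits ATP synthase when it runs in reverse, went the other way later on: it read 1686, 2662 and 1572 with no fracture and 865.8, 1015 and 1044 at 2 weeks (log2 change -0.98 ± 0.17, SE; adjusted p = 0.0014, limma). It was lower at 4 weeks too (-0.73, adjusted p = 0.012) and at 3 days it overlapped the controls.

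Genes that feed or support the chain were mixed, at a time (3 days) when 20.4% of all probe sets were lower and 18.9% higher. Of 13 genes of pyruvate dehydrogenase and the citric acid cycle, 4 were lower and 0 higher at 3 days (median -0.08). They were Dlst (-1.17), Pdhb (-1.12), Dlat (-0.995) and Idh2 (-0.545), which encode enzyme subunits of the oxoglutarate and pyruvate dehydrogenase complexes and isocitrate dehydrogenase. At 6 weeks 2 of the 13 were still lower (7.11% of all probe sets), and Dlst had a log2 change of -0.94 (adjusted p = 0.0016). Of 19 carriers and other mitochondrial proteins, 6 were lower and 2 higher at 3 days (median -0.27). Ckmt2, the creatine kinase of muscle mitochondria, fell by 3.20 on the log2 scale from 3830, 2562 and 3984 to 319.3, 355 and 446.9. Among ADP/ATP carriers, Slc25a5, the form of growing cells, rose by 1.82 from 1492, 1486 and 1424 to 4946, 5833 and 4775. Slc25a20, the carnitine carrier, fell by 1.21, and Ucp2, an uncoupling protein of many tissues, by 1.98. The muscle form Slc25a4, named here after its value was seen, fell by 1.04 on the same scale (adjusted p = 0.00067).

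In the list of 7 regulators of mitochondria, 3 were lower and 1 higher at 3 days (median -0.67), beside 20.4% and 18.9% of all probe sets. Mfn2, which fuses mitochondria, fell by 0.875 on the log2 scale (adjusted p = 8.5e-05), Polg2, a subunit of the mitochondrial DNA polymerase, by 1.18 and Esrra, a nuclear receptor that drives respiratory genes, by 0.67. Ssbp1, which binds single-stranded mitochondrial DNA, rose by 0.73. Glycolysis, the other source of ATP, had 6 of 14 genes lower and 4 higher (median 0.19). The lowest were Eno3 (-3.465), Pgam2 (-3.21), Ldhb (-2.60) and Pfkm (-2.48), and Pgam2, Eno3 and Pfkm are muscle forms. The genes higher at 3 days were Pfkl, Pgam1, Eno1 and Aldoc, by 0.40 to 1.54.

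The study asked how the response changes with age. Over all 6 times 0 of the 56 genes differed between older and young rats (0.446% of all probe sets called) or between adult and young rats (0.0801%), with 3 and 2 genes at an unadjusted p below 0.05 (1230 and 836 of all 8740 probe sets). The lowest p for older against young rats belonged to Cox5a (log2 difference -0.41, adjusted p = 0.14) and Ndufb11 (0.37, adjusted p = 0.2). Older rats had the lower Cox5a signal at 5 of 6 times, but this probe set was dim, with group means from 93.43 to 119.3. At 1 and 2 weeks 0 genes were called for age, older against young (0% of all probe sets; 977 had an unadjusted p below 0.05), with 6 members below that p and 47 of 56 differences negative (58.6% of all probe sets were negative). At 4 and 6 weeks 0 were called (1.24%), with 12 at an unadjusted p below 0.05, close to the share of all probe sets (1826 of 8740).

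The mean log2 change over the 56 genes at 3 days was -0.61 for young, -0.32 for adult and -0.83 for older rats. At 6 weeks it was -0.05, 0.20 and -0.49. These changes are taken from 1 no-fracture array per age, and the older one had the highest mean log2 level of these genes of all 18 arrays (11.45, against 11.14 in young and 10.92 in adult rats). At 3 days the mean levels lay close together, at 10.53 (young), 10.59 (adult) and 10.61 (older), so the spread of the 3-day changes is that of the no-fracture levels. Without that array 13 genes were called lower at 3 days, Atp5f1c, Cox6a1 and Ndufs4 no longer among them, and 4 at 1 week, and without all older arrays the median log2 change turned to 0.06 at 2 weeks and 0.16 at 6 weeks.

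**Figure D5:**
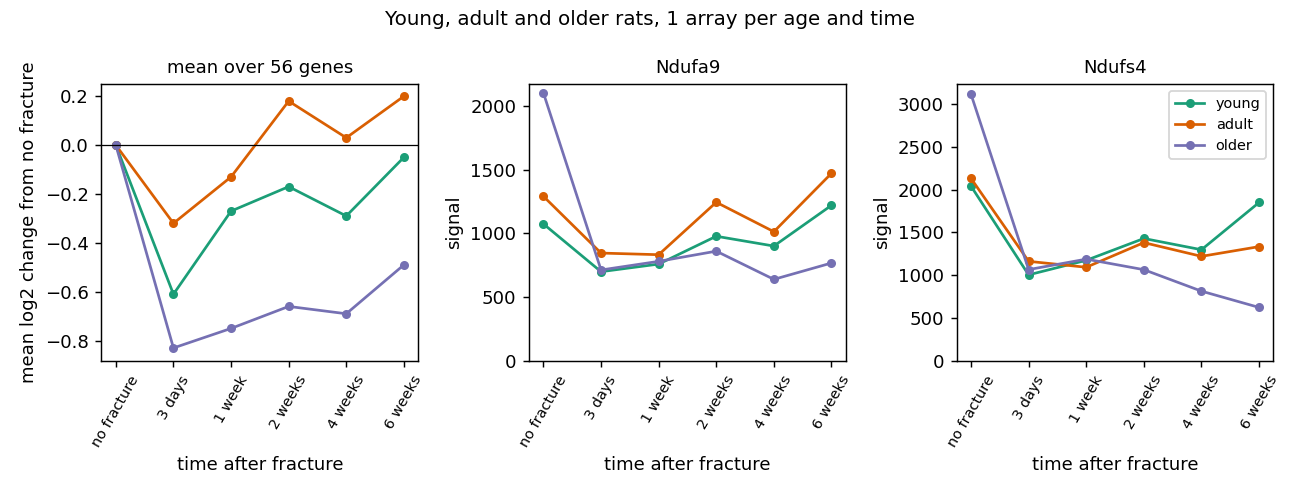
The left panel gives the mean log2 change of the 56 genes from the no-fracture array of the same age, and the other panels give the signal of Ndufa9 and Ndufs4 (vertical axes) at each time (horizontal axis), with 1 array per point. The older line lies lowest in the left panel at every time after fracture, and the older no-fracture points of Ndufa9 and Ndufs4 stand above those of the other ages.

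The late age difference (older less young over 4 and 6 weeks), set against its value with no fracture, was called for 1 gene of the 56 (3.02% of all probe sets), and 20 had an unadjusted p below 0.05, as did 1597 of the 8740 probe sets. That gene was Ndufa9, an accessory subunit at the base of complex I (interaction -1.55 ± 0.21 on the log2 scale, SE; adjusted p = 0.035, limma). Ndufa9 read 2102 in older, 1073 in young and 1290 in adult rats with no fracture. At 6 weeks it read 766.2 in older, 1219 in young and 1471 in adult rats, and at 4 weeks 637.9, 899.5 and 1012. The older array was thus the highest of the 3 with no fracture and the lowest at 4 and 6 weeks. Without the adult arrays 0 genes were called. The interaction was negative in 43 of the 56 genes and in 54.4% of all probe sets (median -0.40, beside 0 over all probe sets), and in 22 of the 24 genes of complex I. Ndufs4 (-1.73, adjusted p = 0.12) and Ndufb2 (-2.07, adjusted p = 0.081) had larger values that were not called. All 56 values share the same 2 no-fracture arrays. Set against 1 and 2 weeks instead, the late difference was called for 0 genes (0% of all probe sets), with 5 at an unadjusted p below 0.05 (937 of all probe sets).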

How the data were processed

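Gene expression was measured in 18 femoral segments, 1 array per age and time. The deposited values are signal intensity per probe set, which the authors computed with Affymetrix Microarray Suite 5.0. The paper states a scaling to an average of 500 on each array, so a value is relative to the rest of its array. After trimming 2% of the values at each end, the mean of an array was 500.7 or 500.8. The plain means were 688.7 to 798.8. Array signals have no read depth, and their number limits the precision: an array had 12.2% to 20.1% of its probe sets under a signal of 20. Detection calls were not used here.

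Of 8799 probe sets, 59 controls were left out. Gene symbols came from the platform annotation (7006 probe sets with 1 symbol, 308 with several, 1426 with none). Values under 20 were set to 20 before the log2 step, and fold changes are on that floored scale. The model, run in limma 3.58.1 under R 4.3.3, held time plus age (10 residual degrees of freedom). A second model let age differ between 4 phases, namely no fracture, 3 days, the middle times (1 and 2 weeks) and the late times (4 and 6 weeks), with 4 residual degrees of freedom, for the age comparisons by phase and the interactions. Moderation followed the trend with signal. Adjusted p is a Benjamini-Hochberg value over 8740 probe sets, called below 0.05, and the code was tested on simulated data.

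The members, the gene lists and the tests were chosen with earlier results of these data known. Genes were named by rule: forms of complex IV subunits, in each complex the 2 genes with the lowest adjusted p at 3 days and the 1 with the lowest at 6 weeks, genes called at 4 or more times or in an age comparison, or else the 2 with the lowest p for older against young, and up to 4 genes per pathway list with the lowest adjusted p at 3 days. Genes outside it were named after their values were seen, because they were called or differed between probe sets. The labels carry no replicate numbers, and age was kept in the fit because each age gave 1 array per time. Alternatives changed the normalization, the floor, a filter on dim probe sets, the moderation, the covariates, the samples and the test, and an offset of 50 replaced the floor. Leaving out the older array with no fracture, the 6-week arrays, or Cox6a2 and Cox8b was added after seeing the data.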

Additional observations from a re-analysis of the deposited data

Results flagged for a closer look

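The tested interaction of Ndufa9, -1.55 on the log2 scale, is the late age difference (older less young, 4 and 6 weeks) less the same difference with no fracture. It rests on 1 no-fracture array per age.

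In the other genes given here, every time after fracture moved one way from no fracture at one age and the opposite way at another. These differences were not tested, and each age has 1 no-fracture array that enters all 5 of its changes. The mean change in adult rats exceeded that in older rats by 1.62 in Ndufb9, 1.47 in Cyc1, 1.39 in Ndufb3, 1.24 in Ndufb5, 1.22 in Ndufa5, 1.18 in Ndufc1, 0.98 in Cox7a2l and 0.78 in Cox6c on the log2 scale. For Sdhaf2, an assembly factor of complex II, the same difference was -0.72. The mean change in young rats less that in adult rats was -0.85 in Cox7a2l and 0.46 in Cox8a, and young less older was 0.66 in Cox8a. Cyc1, the cytochrome c1 of complex III, shows the pattern: it read 1452 in adult and 3484 in older rats with no fracture, and between 1938 and 3648 in adult and 1916 and 3181 in older rats after fracture.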

How the results depend on the processing

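Counts of genes called against no fracture at 3 days, 1, 2, 4 and 6 weeks were 23, 14, 9, 6 and 5, and 14 for 6 weeks against 3 days. With the actin ratio as a covariate they were 4, 2, 1, 0, 4 and 2. With the muscle level they were 0, 2, 4, 7, 5 and 0. On the arrays of the 2 times compared they were 7, 0, 0, 0, 0 and 1. The methods' t-test, here on 3 arrays a group, gave 6, 4, 1, 1, 0 and 15 at a p below 0.005, a threshold the methods state for comparing single arrays and not for that test, and 7, 6, 1, 0, 0 and 9 after Benjamini-Hochberg. Without the older array with no fracture the counts against no fracture were 13, 4, 5, 4 and 2. Leaving out each age in turn gave 7 to 21 at 3 days, 5 to 6 at 1 week, 2 to 5 at 2 weeks, 0 to 4 at 4 and at 6 weeks, and 3 to 8 for 6 weeks against 3 days; at 3 days it was 7 without the young and 10 without the older arrays. With the mean of all probe sets of a gene, 3 were called at 4 weeks and 2 at 6 weeks. A floor of 100, and the fit without the 6-week arrays, each gave 5 at 2 weeks. A mean signal of at least 500 gave 10 at 4 weeks and 22 for 6 weeks against 3 days, and median centring gave 8 for the latter. Other settings stayed within 1.5 times.

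For older against young rats at 4 and 6 weeks, log2(signal + 50) gave 2, filters at 200 and 500 gave 3 and 5, and 3 phases gave 2. The interaction with no fracture gave 2, 3 and 3 under the same scale and filters, and 0 with the actin ratio, the muscle level or without the adult arrays. Other age counts stayed at 0.

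With the muscle level as a covariate the change at 3 days turned to 0.82 in Atp5f1c, 0.74 in Atp5po, 0.46 in Cox6b1 and Uqcrfs1, 0.60 in Ndufa9, 0.05 in Ndufb11, 0.45 in Ndufs4 and 0.55 in Ndufs7. From 3 days to 6 weeks it turned to -0.74 in Atp5f1c, -0.57 in Cox6b1, -0.04 in Cox8b, -0.65 in Ndufs7 and -0.02 in Ndufv3. With the mean of all probe sets, Cox6a1 turned to 0.39 at 3 days, 0.14 at 1 week and 0.15 at 6 weeks, and Ndufv3 to 0.66, 0.75, 0.77 and 0.96 at 3 days, 1, 2 and 4 weeks. The cause was not tested. Of 4218 values of named genes under these settings 3825 kept their side of the threshold. A change of direction was counted only for values called in the main fit.

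The fit without the age term (no replicate block) gave 26, 12, 8, 6, 4 and 17. Same-aged arrays of different times deviated together with a median correlation of 0.08 (-0.16 to 0.39).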

Other observations

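Several subunits are read by probe sets that the annotation gives to more than 1 gene, and these 7 probe sets were left out of the 56 genes. The probe set for Cox5a and a second locus read 9051, 7791 and 11583 in young, adult and older rats with no fracture and 4205, 3986 and 4066 at 3 days, a log2 change of -1.19 (adjusted p = 0.00028, limma). The one for Atp5mc1, a c-ring subunit of ATP synthase, and a related locus read 4778, 3527 and 4558 with no fracture and 2364, 2320 and 2418 at 3 days (-0.84, adjusted p = 0.00078). That for cytochrome c (Cycs) and relatives read 3546, 2720 and 2497 with no fracture and 1691, 1444 and 1983 at 3 days (-0.77, adjusted p = 0.021). None of these 3-day groups overlapped the controls. Atp5mc2, another c-ring gene, had a change of 0.35 at 3 days (adjusted p = 0.085), Cox7a2 of -0.61 (0.055), Ndufb4 of -0.31 (0.34) and Ndufs5 of -0.02 (adjusted p = 1).

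The lower call of the pseudogene Cox6c-ps1 at 3 days (log2 change -1.53, adjusted p = 0.021) rests on dim values, 77.5, 54.1 and 86.2 with no fracture and 19.3, 15.1 and 37.7 at 3 days, 2 of which lay below the floor.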
